A study of Mus musculus with 9 samples.

Results

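The keratins are the proteins of the intermediate filaments of epithelial cells, and their genes were taken here as every gene symbol that begins with Krt and a digit. This rule found 51 keratin genes among the 35006 gene symbols counted, 28 of type I and 23 of type II. They were measured in bulge stem cells of the mouse hair follicle, sorted on the surface proteins CD34 and integrin alpha6 from C57BL/6J mice with no engineered allele named. In 5 libraries the mice had eaten without limit (ad libitum, AL), and in 4 libraries singly housed mice had received each day 70% of the food eaten by weight- and sex-matched AL mice (dietary restriction, DR). Each sort pooled 3 mice. The labels give no age, sex, irradiation state or hair cycle stage for a library, name more than one animal facility without tying libraries to them, and do not say whether each library had a pool of its own, so p-values measure the spread between these libraries. The series title sets the diets in a study of hair graying and stem cell quiescence.

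Keratin filaments are built from pairs of an acidic type I and a basic type II keratin, and each layer of the skin and hair makes its own pair. Keratin 5 and keratin 14 fill the basal cells of the epidermis and the outer root sheath, with keratin 15 in many basal and bulge cells. Keratin 1 and keratin 10 replace them as epidermal cells leave the basal layer. Keratin 8 and keratin 18 are the pair of simple epithelia and, in skin, of Merkel cells. The companion layer, the inner root sheath and the hair shaft each have further pairs, those of the shaft being rich in cysteine.

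Promoters of 4 keratins are shown because these genes stand at both ends of the layers that differed: Krt5 and Krt14, the basal pair, were lower in DR, and Krt31 and Krt32, type I keratins of the hair shaft, were higher. Each is a window of 300 bases, 5′ to 3′, given as a RefSeq promoter of its gene on the GRCm38.p6 assembly, a later build than the mm9 build behind the counts. All 4 lie on the minus strand, at chr15:101712856-101713155, chr11:100205981-100206280, chr11:100050502-100050801 and chr11:100088220-100088519. Their place against the main transcript start of each gene was not checked. Capitals mark the motif TATAAA, one spelling of the TATA box.
Krt5: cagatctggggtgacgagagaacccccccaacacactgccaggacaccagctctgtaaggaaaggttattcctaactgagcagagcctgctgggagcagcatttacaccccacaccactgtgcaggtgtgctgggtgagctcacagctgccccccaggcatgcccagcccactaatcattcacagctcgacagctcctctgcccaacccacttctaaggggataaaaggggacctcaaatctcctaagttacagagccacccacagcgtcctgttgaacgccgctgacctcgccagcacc
Krt14: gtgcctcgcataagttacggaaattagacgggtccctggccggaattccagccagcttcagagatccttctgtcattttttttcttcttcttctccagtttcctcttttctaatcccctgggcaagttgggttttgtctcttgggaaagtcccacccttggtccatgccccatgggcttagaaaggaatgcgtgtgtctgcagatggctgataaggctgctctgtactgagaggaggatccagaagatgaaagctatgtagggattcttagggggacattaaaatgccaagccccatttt
Krt31: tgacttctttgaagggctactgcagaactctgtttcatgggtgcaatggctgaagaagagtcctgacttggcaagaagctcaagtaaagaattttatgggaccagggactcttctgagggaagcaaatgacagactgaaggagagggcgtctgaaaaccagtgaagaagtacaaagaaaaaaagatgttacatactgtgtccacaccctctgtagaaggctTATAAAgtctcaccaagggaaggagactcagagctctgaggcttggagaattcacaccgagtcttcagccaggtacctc
Krt32: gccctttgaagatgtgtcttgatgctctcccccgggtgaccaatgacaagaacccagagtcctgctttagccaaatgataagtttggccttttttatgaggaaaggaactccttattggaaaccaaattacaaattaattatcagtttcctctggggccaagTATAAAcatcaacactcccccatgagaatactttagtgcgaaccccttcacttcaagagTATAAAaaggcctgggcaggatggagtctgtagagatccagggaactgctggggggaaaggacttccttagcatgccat
TATAAA occurred once in the Krt31 window, at 2 places in the Krt32 window and on neither strand of the Krt5 and Krt14 windows. The motif did not follow the direction of change in the other called keratins with a window. It was at 2 places for Krt8 and 1 for Krt28 (both lower) and at 1 for Krt42 (higher). It was at 0 for Krt24 (lower) and Krt18 (higher). Of 35 windows found for 34 keratins, 18 (51.4%) held TATAAA on one strand or the other, against 13.6% of all 32851 promoter windows of this length. The AP-2 motif GCCNNNGGC was in 5 keratin windows (14.3%, against 16.6% of all) and the AP-1 motif TGANTCA in 2 (5.71%, against 7.81% of all), and neither was in the 4 windows shown. These are matches of letters only.

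Libraries held 26119500 to 33559300 gene counts (rounded to 6 digits). Values below are CPM, counts scaled to a common library total, after TMM scaling, which matches libraries by the bulk of their genes. The genes of the sort and of bulge identity were present in every library, but not all at the same level in both diets. Cd34 stood at 531 to 2041 CPM in AL and 414 to 630 in DR (means 1083 and 479). Sox9 stood at 610 to 795 and 462 to 584, without overlap, and was called lower by the edgeR test below (log2 change -0.38, adjusted p = 0.023). Itga6 (402 to 518 and 400.4 to 425) and Lhx2 (522 to 728 and 436 to 815) were not called. The part of these differences in the keratin values was not tested. Keratins took 3.44% to 4.16% of the gene counts in AL and 2.21% to 2.68% in DR, so the range of the AL libraries lay above that of the DR libraries. Markers of other skin cells were low against the summed keratins (31442 to 39565 CPM in AL, 23137 to 27966 in DR) but not against the scarce keratins. They summed to 333 to 389 CPM in AL and 188 to 279 CPM in DR for fibroblasts, 278 to 385 and 178 to 237 for sebocytes, and 112 to 231 and 125 to 177 for melanocytes. For immune cells the sums were 2.60 to 34.4 and 7.03 to 43.0, and for endothelial cells 0.903 to 16.7 and 3.87 to 38.4. Fbln1, Fasn and Mitf, at means of 254, 273 and 149 CPM in AL, made up most of the first 3 sums. The test below called 60% of 5 tested fibroblast markers (1 higher, 2 lower), 40% of 5 sebocyte markers and 50% of 6 melanocyte markers (all lower). Of all tested genes it called 40.7%. The part of these other cells in the keratin values was not tested. In sorted bulk RNA, fewer cells of a type and less RNA per cell cannot be told apart.

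Of the 51 keratins, 33 passed the filter on low counts, 19 of type I and 14 of type II. By edgeR's quasi-likelihood test with Benjamini-Hochberg adjustment over all genes tested (called where the adjusted p was under 0.05), 4 keratins were higher in DR (Krt18, Krt31, Krt32, Krt42) and 9 were lower (Krt5, Krt14, Krt15, Krt8, Krt19, Krt16, Krt28, Krt24, Krt222). The called share of keratins, 39.4%, was close to that of all 15447 tested genes, 40.7%, of which 19.0% were higher and 21.7% lower. The CPM of the 2 diets did not overlap for 9 keratins of 33, against 32.9% of all tested genes. A call with a difference of at least 2-fold was made for 6 keratins, against 11.5% of all tested genes. The median log2 fold change was -0.05 over tested keratins and -0.02 over all tested genes. The family as a whole therefore stood near the background of this comparison, and the layers differed in their counts: 3 basal keratins of 3 were lower, 2 tested hair keratins of 2 were higher, and 0 of 7 suprabasal and canal keratins were called in edgeR's test. Of those 7, Krt79 alone had an unadjusted p under 0.05, and it alone was called by DESeq2's Wald test. The low-count filter asks for 0.343 CPM in at least 4 libraries, counted over both diets together. Krt31 reached this level in 0 AL and 4 DR libraries and Krt18 in 1 and 4. For these, DR, where they are high, alone held 4 such libraries. Krt28 reached it in 5 AL and 2 DR libraries, Krt19 in 4 and 3, and Krt6b, not called, in 5 and 2. For these 3, AL, where they are high, alone held at least 4 such libraries. As the diet with the higher level alone held enough libraries for the filter, the calls of such genes and their part in these counts are a description.

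**Figure D1:**
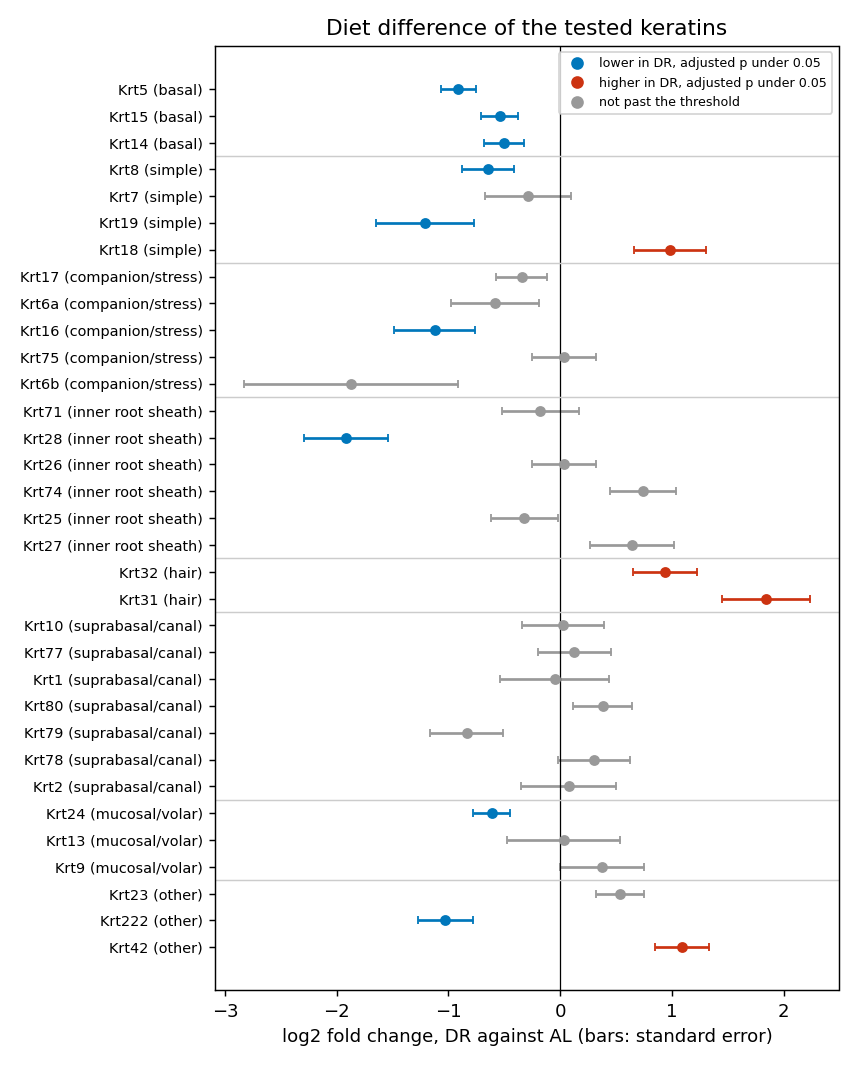
Log2 fold change of each tested keratin, DR against AL, on the horizontal axis, with its standard error as a bar and genes grouped by layer. Blue points were called lower, red points higher and gray points not called; the basal keratins sit left of 0 and the hair keratins right of it.

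Levels of different keratins were compared per kilobase of transcript (CPM divided by the length of the longest coding transcript). On that scale Krt15 was the most abundant in AL (7274 CPM per kilobase), followed by Krt5 (5984), Krt14 (2446), Krt17 (1119) and Krt10 (905). In DR the order of these 5 was Krt15 (4999), Krt5 (3182), Krt14 (1729), Krt10 (921) and Krt17 (880.4). Krt77 (483 in AL, 526.5 in DR), Krt24 (253 and 165), Krt6a (214 and 143), Krt1 (199 and 192) and Krt80 (88.9 and 116) came next. All other keratins with a length were under 40 CPM per kilobase in both diets. Basal keratins made up 76.6% to 85.1% of keratin CPM in AL and 68.6% to 78.0% in DR, ranges that overlap.

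**Figure D2:**
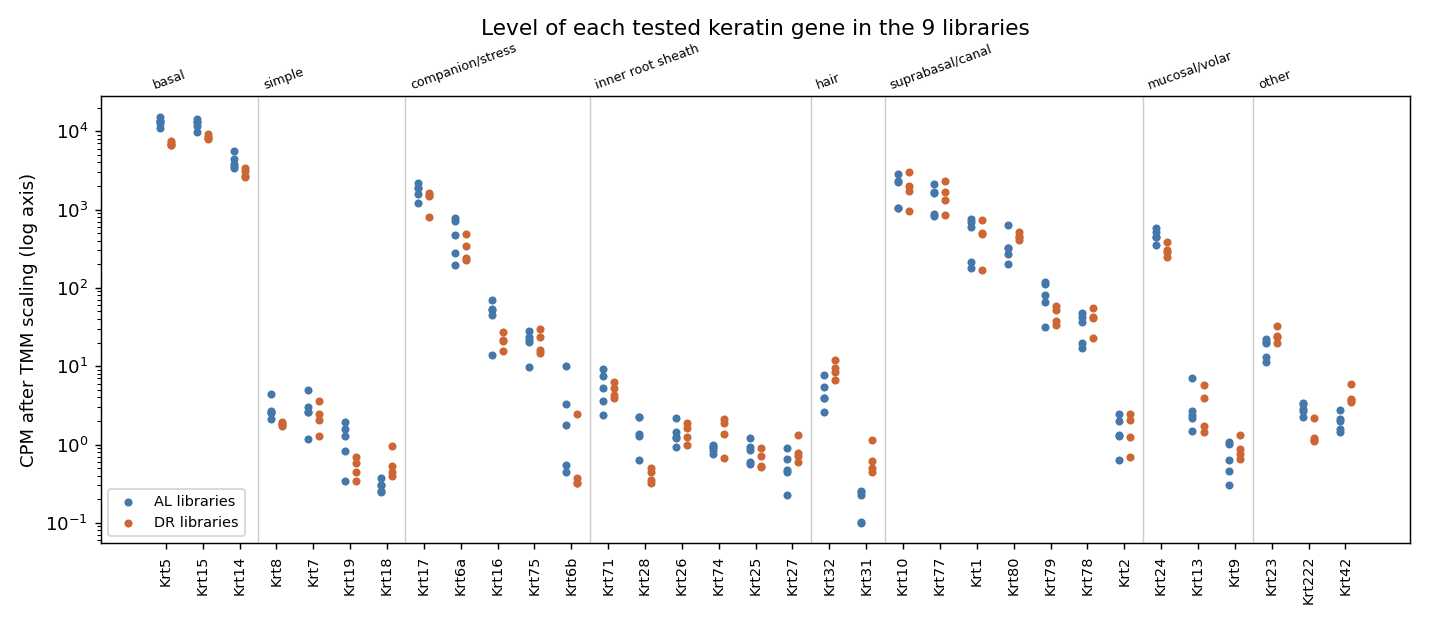
CPM of the 33 tested keratins in every library (points) on a log axis, with AL and DR libraries in separate colors and genes ordered by layer. Krt5, Krt15 and Krt14 stand at the top in both diets, and the hair and inner root sheath keratins lie mostly under 10 CPM.

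All 3 basal keratins fell in DR, and Krt5 fell the most. Krt5, the type II keratin of basal keratinocytes, stood at 13523, 11028, 13371, 12545 and 15264 CPM in AL and at 6757, 6992, 7531 and 6681 CPM in DR. Every DR library was far below the lowest AL library, and the DR libraries lay within 1.13-fold of each other. Its mean fell from 13146 ± 1543 to 6990.2 ± 384 CPM (SD, n = 5 and 4), a log2 fold change of -0.91 with a standard error (SE) of 0.16 and an edgeR adjusted p of 0.0011. Leaving out any 1 library gave -0.96 to -0.85, and the call held in 19 of 19 alternatives.

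Krt15, a type I keratin much used as a bulge marker, stood at 13033, 9671, 13124, 11574 and 14422 CPM in AL and at 7937, 9253, 8499.6 and 8302 CPM in DR. The groups did not overlap, but the highest DR library came close to the lowest AL library. Its log2 fold change was -0.54 (SE 0.17, edgeR adjusted p = 0.024), and the call was lost in 5 of 19 alternatives. Without AL library 1 the adjusted p was 0.051, and without DR library 1, 3 or 4 it was 0.062, 0.069 and 0.066.

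Krt14, the type I partner of keratin 5, stood at 3547, 3382, 4385, 5654 and 3798 CPM in AL and at 3348, 2573, 3145 and 2674 CPM in DR. The highest DR library was just under the lowest AL library, and AL library 4 was the highest of all. The log2 fold change was -0.50 (SE 0.18, edgeR adjusted p = 0.045). The call was the least firm of the 3, lost in 9 of 19 alternatives: the adjusted p was 0.052 with DESeq2 size factors, 0.082 and 0.085 without AL library 3 or 4, and 0.12, 0.081 and 0.12 without DR library 2, 3 or 4. The others were no low-count filter, the replicate block and the level of suprabasal markers as a covariate. For Krt14, 36.2% of the 51-base windows of its transcript match another gene with at most 2 mismatches (Krt16 the most often), against 13.7% for Krt5 and 1.88% for Krt15, so reads of this length can be lost or shared between copies.

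**Figure D3:**
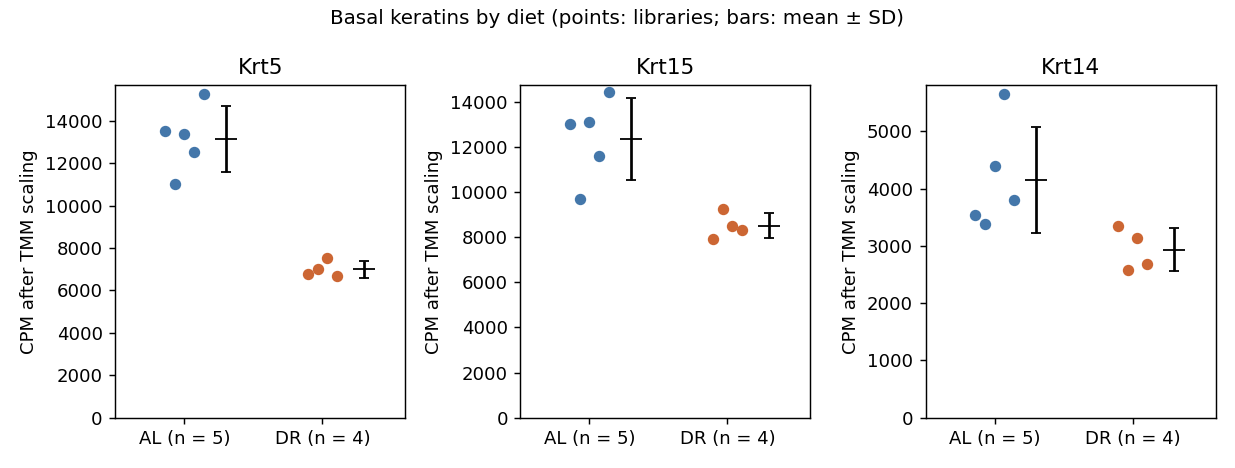
CPM of Krt5, Krt15 and Krt14 in each library (points) with the mean and SD of each diet (bars). For each gene the 4 DR points lie below the 5 AL points, with the widest gap for Krt5.

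Levels of the basal partners were also set against each other within each library. Krt5 CPM divided by Krt14 CPM gave 3.81, 3.26, 3.05, 2.22 and 4.02 in AL and 2.02, 2.72, 2.39 and 2.50 in DR. The groups overlap through AL library 4, the library with the highest Krt14, and the difference between the changes of the 2 genes was not tested. Over all keratins, the ratio of type II to type I CPM ran from 0.706 to 0.822 in AL and from 0.622 to 0.690 in DR, with no overlap. Summed type II CPM was 16038 ± 1642 in AL and 9906 ± 1076 in DR, and summed type I CPM was 20701 ± 1872 and 15104 ± 998 (SD, n = 5 and 4). These sums rest almost wholly on a few genes, since only 6 keratins exceeded 1000 CPM in AL.

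The keratins of simple epithelia were scarce and did not move together. Krt8, their type II member, stood at 2.09, 2.61, 2.55, 4.46 and 2.67 CPM in AL and at 1.73, 1.83, 1.95 and 1.84 CPM in DR. It fell by 0.65 on the log2 scale (SE 0.23, edgeR adjusted p = 0.043), with no overlap of the groups. Krt18, the type I partner of keratin 8, stood at 0.253, 0.245, 0.302, 0.378 and 0.301 CPM in AL and at 0.396, 0.449, 0.526 and 0.967 CPM in DR. It rose by 0.98 on the log2 scale (SE 0.32, edgeR adjusted p = 0.030), from 7 to 11 counts a library in AL and 11 to 30 in DR, so the partners moved in opposite directions. Krt18 reached the low-count cutoff in 1 AL and 4 DR libraries. DR, where it is high, thus alone held enough libraries for the filter.

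Neither call of this pair was firm. That of Krt8 was lost in 12 of 19 alternatives, among them the removal of any of AL libraries 2, 3 and 4 or of any DR library (adjusted p = 0.055 to 0.085). That of Krt18 was lost in 7 of 18, among them the removal of AL library 1, 2 or 3 (0.060, 0.064 and 0.055) or of DR library 4 (0.12, with the log2 fold change at 0.63). Krt8 shares 39.8% of its windows with other genes, above all the pseudogene Krt8-ps, and Krt18 shares 8.44%.

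Krt19, a type I keratin found in simple epithelia and in the bulge, stood at 0.831, 1.93, 1.58, 1.27 and 0.339 CPM in AL and at 0.575, 0.688, 0.338 and 0.451 CPM in DR. AL library 5 lay among the DR libraries and the other AL libraries above them. The log2 fold change was -1.21 (SE 0.44, edgeR adjusted p = 0.047). Krt19 reached the low-count cutoff in 4 AL and 3 DR libraries, so that AL alone held enough for the filter. The call was lost in 9 of 18 alternatives, without AL library 2, 3 or 4 (adjusted p = 0.11, 0.096 and 0.072) and without DR library 1, 2, 3 or 4 (0.075, 0.057, 0.12 and 0.11). Krt7, a type II keratin of glandular and duct epithelia, ranged from 1.17 to 5.01 CPM in AL and from 1.28 to 3.63 CPM in DR and was not called (edgeR adjusted p = 0.59).

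Merkel cells, the touch receptors of the skin, use keratins 8, 18 and 20. Their defining markers Atoh1 and Rab3c were at 0 in all 9 libraries, and Krt20 had 0 to 2 counts a library. Over all libraries Sox2, Isl1 and Snap25 had 4, 2 and 1 counts, Syp had 52 and Chga had 81, and none of these was tested. Of the 12 listed Merkel genes 11 were in the files, and 3 were tested: Krt8 and Krt18 as above, and Cck, which encodes cholecystokinin. All 3 were called (100%, against 40.7% of all tested genes). Cck fell from 10.2, 2.72, 6.80, 14.5 and 20.1 CPM in AL to 0.036, 0.359, 0.489 and 0.355 CPM in DR (log2 change -5.11, edgeR adjusted p = 0.00025). It reached the low-count cutoff in 5 AL and 2 DR libraries, so that AL alone held enough for the filter. The Merkel list summed to 6.15 to 23.2 CPM in AL and to 2.63 to 3.55 CPM in DR, and its part in the Krt8 and Krt18 values was not tested.

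Among the keratins of the companion layer and of stressed or activated epidermis, Krt16 fell and the other 4 did not pass the test. Krt16, a type I keratin induced in wounded epidermis, stood at 44.4, 52.1, 69.3, 53.3 and 13.7 CPM in AL and at 21.7, 15.5, 20.7 and 27.5 CPM in DR. AL library 5 was the lowest of all 9, and the other AL libraries were above every DR library. The log2 fold change was -1.12 (SE 0.36, edgeR adjusted p = 0.028). The call was lost in 7 of 19 alternatives: with limma-voom (adjusted p = 0.082), without AL library 2, 3 or 4 (0.054, 0.067 and 0.051) and without DR library 1, 2 or 3 (0.055, 0.076 and 0.068). Other genes match 54.9% of its windows, the pseudogene Gm11597 the most often.

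Krt17, the type I keratin of the outer root sheath and a common companion of keratin 6, stood at 1193, 1873, 1583, 2169.6 and 1858 CPM in AL and at 1644, 812, 1533 and 1473 CPM in DR. The groups overlap, with DR library 2 the lowest (log2 change -0.35, SE 0.23, edgeR adjusted p = 0.24). Krt6a, the main keratin 6 gene of the companion layer, stood at 470.0, 194, 277, 769.8 and 723 CPM in AL and at 489, 339, 228 and 243 CPM in DR. It varied 3.96-fold among the AL libraries alone, and its log2 fold change of -0.58 (SE 0.39) did not pass (edgeR adjusted p = 0.26).

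Krt75, the type II keratin that marks the companion layer, stood at 23.4, 9.82, 20.4, 27.9 and 21.3 CPM in AL and at 23.6, 29.8, 14.7 and 16.0 CPM in DR. Its means were nearly equal (log2 change 0.04, SE 0.28, edgeR adjusted p = 0.93). Krt6b, a near copy of Krt6a, stood at 10.2, 0.544, 1.78, 0.446 and 3.31 CPM in AL and at 0.324, 2.42, 0.376 and 0.322 CPM in DR. Its spread within a diet, 22.8-fold in AL and 7.52-fold in DR, was wider than the diet difference (log2 change -1.87, SE 0.96, edgeR adjusted p = 0.14), and it rested on single libraries: without DR library 2 the log2 fold change was -3.23 (adjusted p = 0.038), and without AL library 1 it was -0.77 (0.48). Krt6a and Krt6b share 68.5% and 63.0% of their windows with other genes, mostly each other, so their separate counts are uncertain.

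The inner root sheath, the tube that molds the growing hair, has keratins 25 to 28 (type I) and 71 to 74 (type II), and of these only Krt28 was called by edgeR's test. Krt28 stood at 1.30, 2.26, 2.21, 1.37 and 0.64 CPM in AL and at 0.324, 0.509, 0.451 and 0.355 CPM in DR. The groups did not overlap, and the DR libraries held 9 to 17 counts each against 17 to 83 in AL. It fell by 1.92 on the log2 scale (SE 0.38, edgeR adjusted p = 0.0023), and the call held in 19 of 19 alternatives. Only 2 of its DR libraries reached the low-count cutoff, so that it was tested because of its AL level.

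Krt74, a type II keratin of the inner root sheath, stood at 0.939, 0.979, 0.939, 0.858 and 0.753 CPM in AL and at 2.09, 1.86, 0.676 and 1.35 CPM in DR. Of the DR libraries 3 were above and 1 below the AL range (log2 change 0.74, SE 0.30, edgeR adjusted p = 0.067), and without DR library 3 the log2 fold change was 0.99 (adjusted p = 0.0077). Krt71, the most abundant of the group, ranged from 2.37 to 9.15 CPM in AL and from 3.95 to 6.29 CPM in DR (adjusted p = 0.71). Krt26 (0.941 to 2.20 and 0.977 to 1.86 CPM), Krt25 (0.570 to 1.23 and 0.516 to 0.898 CPM) and Krt27 (0.226 to 0.905 and 0.598 to 1.33 CPM) also overlapped between AL and DR and were not called, with edgeR adjusted p-values of 0.94, 0.42 and 0.19. Krt73 did not pass the filter. It had 2, 3, 2, 2 and 0 counts in AL and 11, 35, 4 and 7 in DR. With no low-count filter, its log2 fold change was 2.88 (SE 0.66, edgeR adjusted p = 0.0053), which makes it the 1 keratin under the filter that was called in that alternative.

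Both hair shaft keratins that could be tested rose in DR. Krt32, a type I keratin of the hair cuticle, stood at 5.49, 2.61, 3.92, 3.88 and 7.83 CPM in AL and at 9.35, 11.8, 6.65 and 8.35 CPM in DR. The lowest DR library lay under the highest AL library, and the other DR libraries lay above all of AL. The log2 fold change was 0.94 (SE 0.29, edgeR adjusted p = 0.024), and the call was lost in 3 of 19 alternatives, without AL library 3 or 4 (adjusted p = 0.057 and 0.0503) and without DR library 2 (0.073). The predicted gene Gm11571 overlaps Krt32 on the other strand, and the library kit does not mark strand.

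Krt31, a type I keratin of the hair cortex, stood at 0.253, 0.245, 0.101, 0.103 and 0.226 CPM in AL and at 1.15, 0.509, 0.451 and 0.613 CPM in DR. The groups did not overlap, although the counts were small (3 to 9 a library in AL, 12 to 32 in DR). It rose by 1.84 on the log2 scale (SE 0.39, edgeR adjusted p = 0.0037), and the call held in 18 of 18 alternatives in which it was tested. The gene passed the low-count filter through DR only, where it is high (0 AL and 4 DR libraries at or above the cutoff). Its call is therefore a description, and the stricter filter left it out. Because 47.1% of its windows match other hair keratins, Krt34 the most often, its reads may belong in part to them. The other 12 hair keratins did not pass the filter: Krt84 was the highest of them, at 1 to 12 counts a library, and Krt33b, Krt81 and Krt82 had 0 counts in all libraries.

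**Figure D4:**
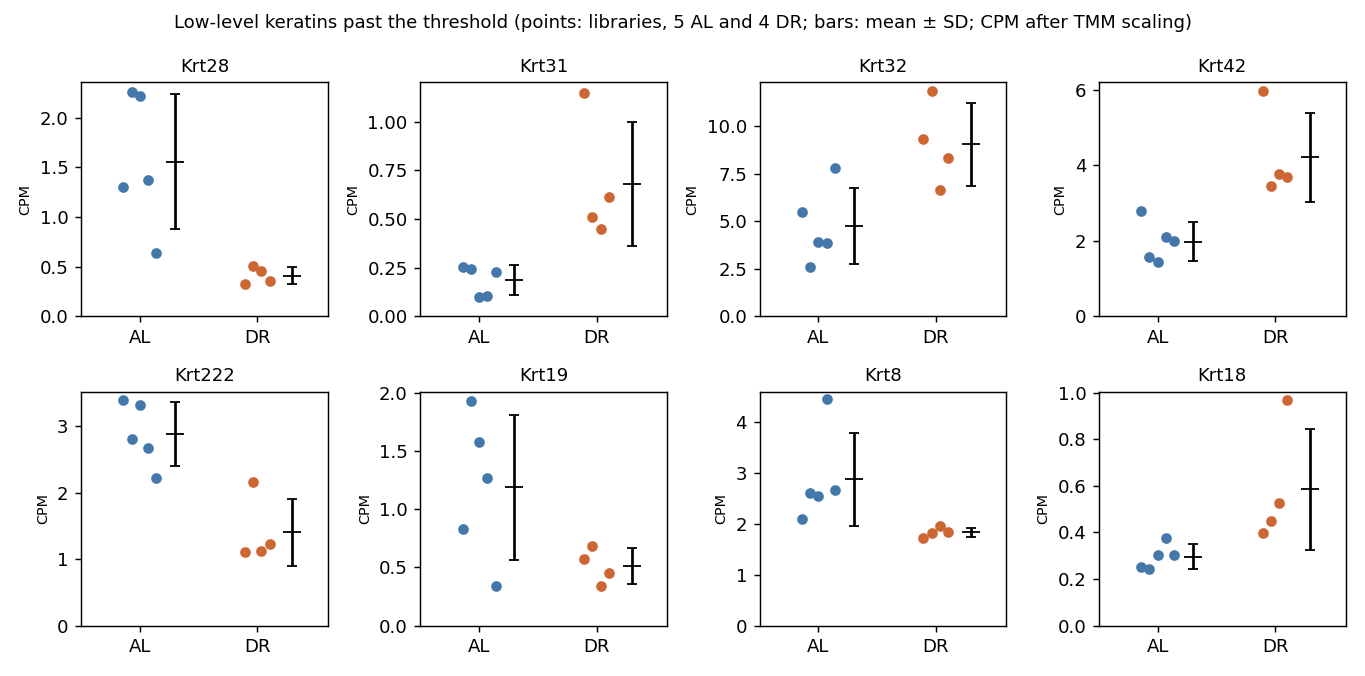
CPM in each library (points) with the mean and SD of each diet (bars) for 8 called keratins of low level, 5 AL libraries beside 4 DR libraries. Krt28 and Krt222 are lower and Krt31 and Krt42 higher in every DR library than in any AL library.

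The summed level of the hair matrix marker list, 204.7 to 243 CPM in AL and 237 to 273 CPM in DR, overlapped between the diets. Gata3 was its largest part, at a mean of 152 CPM in AL and 144 CPM in DR. Of the 7 tested members of the list, Tchh alone was called by edgeR's test (14.3%, against 40.7% of all tested genes). Shh, a defining gene of the growing hair matrix, had 3 counts over all 9 libraries. The part of these cells in the Krt31 and Krt32 values was not tested.

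The keratins of the suprabasal epidermis and the hair canal showed no diet difference that passed the test, and varied more between libraries of 1 diet. Krt10, the type I keratin of differentiating epidermis, stood at 2336, 2250.4, 2813, 1045 and 1033 CPM in AL and at 965, 1731, 3054 and 1967 CPM in DR. AL libraries 4 and 5 and DR library 1 were low, and the means were nearly equal (log2 change 0.03, SE 0.37, edgeR adjusted p = 0.96). Krt1, its type II partner, stood at 702, 595, 753, 214 and 178 CPM in AL and at 167, 482, 742 and 499 CPM in DR. The same 3 libraries were lowest (log2 change -0.05, SE 0.49, edgeR adjusted p = 0.95).

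Krt77, a type II keratin of sweat duct and suprabasal cells, stood at 1609, 1663, 2093, 837 and 871 CPM in AL and at 853, 1341, 2327 and 1652 CPM in DR (log2 change 0.13, edgeR adjusted p = 0.79). Krt78, a type II epidermal keratin, stood at 42.3, 36.3, 47.8, 19.9 and 16.9 CPM in AL and at 22.8, 41.0, 55.2 and 42.0 CPM in DR (log2 change 0.30, edgeR adjusted p = 0.48). In both, AL libraries 4 and 5 and DR library 1 were again the lowest of the 9. The summed level of 9 suprabasal markers that are no keratins was 1841, 1632, 1902, 1129 and 1173 CPM in AL and 1600.3, 1755, 2771 and 1950.3 CPM in DR, lowest in AL libraries 4 and 5 and highest in DR library 3.

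The whole suprabasal marker list, Krt1 and Krt10 included, summed to 2384 to 5469 CPM in AL and 2732 to 6567 CPM in DR. Of its 11 members Krtdap and Sbsn, both higher, were called by edgeR's test (18.2%, against 40.7% of all tested genes). With the level of the 9 markers as a covariate, added after the data were seen, Krt10 had a log2 fold change of -0.43 (edgeR adjusted p = 0.041), against 0.03 without it, and Krt1 one of -0.59 (adjusted p = 0.034). Krtdap and Sbsn, called higher in DR, are among the 9 markers. The covariate is thus not free of the diet, and these values are not diet differences cleared of cell composition. The Krt5 and Krt15 calls held with this covariate, while those of Krt14, Krt8 and Krt18 were lost and Krt79 and Krt80 were called.

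**Figure D5:**
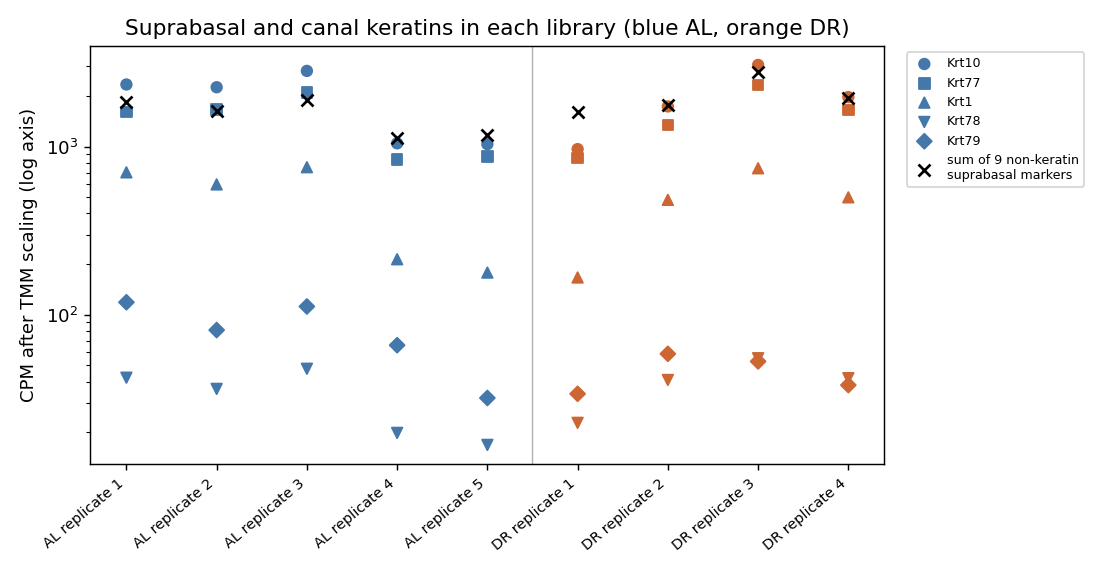
CPM of Krt10, Krt77, Krt1, Krt78 and Krt79 (colored symbols) and the summed CPM of 9 suprabasal markers that are no keratins (crosses) in each library, on a log axis. Krt10, Krt77, Krt1 and Krt78 are low in AL libraries 4 and 5 and in DR library 1, where the summed markers stood at 1129, 1173 and 1600.3 CPM.

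Krt80, a type II keratin widely made in stratified epithelia, stood at 322, 203, 269.7, 322 and 625 CPM in AL and at 509, 448, 453 and 405 CPM in DR. The 4 DR libraries lay above all AL libraries but library 5, which was the highest of all (log2 change 0.38, SE 0.26, edgeR adjusted p = 0.27). It was called in 4 of 19 alternatives, and without AL library 5 the log2 fold change was 0.70 (adjusted p = 0.0037). Krt79, a type II keratin of the hair canal and upper follicle, stood at 119, 81.1, 112, 66.0 and 32.0 CPM in AL and at 33.9, 58.6, 52.8 and 38.2 CPM in DR. AL library 5 was the lowest of all and the other AL libraries were above every DR library (log2 change -0.84, SE 0.33, edgeR adjusted p = 0.061). It was called in 5 of 19 alternatives, and without AL library 5 the log2 fold change was -1.04 (adjusted p = 0.0031). Krt2, a type II keratin of the uppermost living epidermis, ranged from 0.626 to 2.47 CPM in AL and from 0.683 to 2.48 CPM in DR (adjusted p = 0.90).

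The list of isthmus and infundibulum markers, the upper follicle where Krt79 is made, summed to 550.0 to 893 CPM in AL and 474 to 521 CPM in DR. Of its 8 tested members 2 were higher (Gata6, Cst6) and 3 lower (Sostdc1, Lgr6, Klk10), a called share of 62.5% against 40.7% of all tested genes. Its part in the Krt79 values was not tested.

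Of the keratins known from mucosa, cornea or palm and sole, Krt24 fell. Krt24, a type I keratin, stood at 510.0, 349, 586, 448 and 446 CPM in AL and at 300.4, 390.1, 248 and 284 CPM in DR. DR library 2 lay above the lowest AL library and the other DR libraries below all of AL. The log2 fold change was -0.61 (SE 0.17, edgeR adjusted p = 0.013), and the call was lost in 1 of 19 alternatives, without DR library 3 (adjusted p = 0.052). Krt9, the type I keratin of palm and sole, stood at 1.01, 0.462, 0.637, 1.06 and 0.301 CPM in AL and at 0.755, 1.32, 0.864 and 0.645 CPM in DR, with the groups overlapping (log2 change 0.37, edgeR adjusted p = 0.46). Krt13, a type I keratin of mucosa, ranged from 1.47 to 7.08 CPM in AL and from 1.43 to 5.72 CPM in DR (adjusted p = 0.97).

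The remaining 3 tested keratins, all of type I, split in direction. Krt222, a truncated keratin-like gene, stood at 3.40, 2.80, 3.32, 2.68 and 2.22 CPM in AL and at 1.11, 2.15, 1.13 and 1.23 CPM in DR. The groups did not overlap, DR library 2 coming just under the lowest AL library (log2 change -1.03, SE 0.25, edgeR adjusted p = 0.0069). Krt42, a type I gene beside Krt17, stood at 2.78, 1.58, 1.44, 2.09 and 1.99 CPM in AL and at 5.97, 3.44, 3.76 and 3.68 CPM in DR. Every DR library was above every AL library, and the log2 fold change was 1.09 (SE 0.24, edgeR adjusted p = 0.0046). The calls of Krt222 and Krt42 held in 19 of 19 alternatives each. Krt23 stood at 20.4, 19.8, 22.3, 11.5 and 13.0 CPM in AL and at 24.6, 19.9, 32.9 and 23.6 CPM in DR, and was not called (log2 change 0.54, SE 0.21, edgeR adjusted p = 0.064). It was called in 3 of 19 alternatives: by DESeq2's Wald test (adjusted p = 0.033), and by edgeR without AL library 3 (0.046) or DR library 2 (0.048).

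The 18 keratins under the filter were 12 hair keratins (Krt33a, Krt33b, Krt34, Krt35, Krt36, Krt39, Krt40, Krt81, Krt82, Krt83, Krt84, Krt86), Krt20, Krt73, Krt4, Krt76, Krt12 and the pseudogene Krt72-ps. Apart from Krt73 in DR, none of them exceeded 14 counts in a library. Krt4, a type II keratin of mucosa, had 14, 12, 14, 8 and 9 counts in AL and 1, 9, 4 and 5 in DR.

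Keratin genes lie in one cluster for each type, and in the RefSeq table of GRCm38.p6, used for order only, 27 were on chromosome 11 and 23 on chromosome 15, where Krt18 is the type I gene at the edge of the type II cluster. In gene order on chromosome 11, Krt24 and Krt222 (both lower) stood beside each other, as did Krt15 and Krt19 (both lower) and Krt31 and Krt32 (both higher), and Krt14 and Krt16 (both lower) were followed by Krt17 (not called) and Krt42 (higher). On chromosome 15, Krt8 (lower) stood beside Krt18 (higher). Genes on the other strand overlap exons of 11 keratins in GENCODE M21, Krt5, Krt8, Krt10 and Krt80 among them, and unstranded reads there cannot be assigned.

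Genes that anchor keratin filaments or act on keratin genes were counted from lists chosen with earlier results of these data known. Of 17 anchoring genes, all tested, 3 were higher and 2 lower in DR by edgeR's test, with a median log2 fold change of 0.04; the share called, 29.4%, was below the 40.7% of all tested genes. Ppl, encoding the desmosome linker periplakin, stood at 395, 382, 381, 423 and 434 CPM in AL and at 671, 682, 787 and 758 CPM in DR (log2 change 0.85, SE 0.10, edgeR adjusted p = 0.00011). Perp, encoding another desmosome protein, stood at 1744, 1519, 1826, 1583 and 2212 CPM in AL and at 2520.3, 3297, 3404 and 3610.3 CPM in DR (log2 change 0.85, SE 0.16, edgeR adjusted p = 0.0015). Both were higher in every DR library than in any AL library.

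Dsc2, encoding the desmosomal cadherin desmocollin 2, stood at 7.69, 4.43, 6.03, 6.18 and 4.37 CPM in AL and at 1.94, 2.12, 1.77 and 1.84 CPM in DR, again without overlap. Its log2 fold change was -1.58 (SE 0.20, edgeR adjusted p = 0.00023). The main plakin of desmosomes, Dsp, had a log2 fold change of 0.07 (adjusted p = 0.80), and the genes of the integrin to which basal keratins attach through plectin, Itga6 and Itgb4, had -0.12 and -0.13 (adjusted p = 0.34 and 0.58). The other 2 called anchors were Dst, which encodes dystonin of the hemidesmosome (1.01, adjusted p = 0.0040), and Plec, which encodes plectin (-0.62, adjusted p = 0.034).

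Of 19 transcription factors listed as acting on keratin genes, 5 were higher (Foxq1, Ovol2, Klf5, Ovol1, Nfe2l2) and 2 lower (Dlx3, Sox9), with a median log2 fold change of 0.11. The share called was 36.8%, near the 40.7% of all tested genes. Foxq1, a factor of hair differentiation, stood at 1.59, 1.20, 1.21, 1.13 and 1.28 CPM in AL and at 3.70, 3.89, 3.72 and 4.16 CPM in DR (log2 change 1.59, SE 0.17, edgeR adjusted p = 6.9e-05). Ovol2, a repressor that guards epithelial identity, stood at 12.2, 11.7, 11.1, 11.1 and 17.8 CPM in AL and at 24.3, 25.7, 24.2 and 26.8 CPM in DR (log2 change 0.98, SE 0.14, edgeR adjusted p = 0.00043). Neither gene overlapped between diets.

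Klf5, a factor of proliferating epithelia, stood at 26.0, 22.5, 27.2, 45.5 and 33.2 CPM in AL and at 62.5, 40.4, 62.2 and 55.2 CPM in DR. DR library 2 lay under AL library 4, and the log2 fold change was 0.83 (SE 0.20, edgeR adjusted p = 0.0068). Among 13 listed products of the follicle layers, 7 were tested and Tchh alone was called (14.3%, against 40.7% of all tested genes). Tchh, encoding the inner root sheath protein trichohyalin to which keratins are bound, stood at 13.3, 16.8, 13.6, 21.1 and 21.3 CPM in AL and at 48.3, 32.2, 41.5 and 48.4 CPM in DR (log2 change 1.31, SE 0.17, edgeR adjusted p = 0.00027). It was thus higher in every DR library, while Krt28 of the same layer was lower in every one.

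Keratin-associated proteins cross-link hair keratins in the shaft. Of 50 such genes in the files, 40 had no count in any library and 2 were tested. Krtap3-2 stood at 0.397, 0.653, 0.570, 0.343 and 0.339 CPM in AL and at 0.467, 1.59, 2.44 and 2.26 CPM in DR, with DR library 1 inside the AL range (log2 change 1.85, SE 0.43, edgeR adjusted p = 0.0055). Krtap3-2 reached the low-count cutoff in 3 AL and 4 DR libraries. DR, where it is high, thus alone held enough libraries for the filter. Krtap17-1 ranged from 10.9 to 31.0 CPM in AL and from 12.9 to 26.8 CPM in DR and was not called (adjusted p = 0.75).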

How the data were processed

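RNA of sorted bulge cells was read in 5 AL and 4 DR libraries (TruSeq RNA v2, single reads of 51 bases, per the labels' protocols). The deposited values are raw read counts per gene symbol, 1 file a library, not normalized. The submitters' processing notes name HTSeq 0.11.2, TopHat2 2.1.0, Bowtie, FastQC 0.11.5 and the build mm9; annotation, strand setting and multiple-mapping rule: not given in the sources used here. The 6 lines that name no gene held 25.9% to 30.7% of each library and were left out.

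From the counts, edgeR 4.0.16 (R 4.3.3; filterByExpr by diet, TMM, glmQLFit, glmQLFTest on diet alone) tested all genes together, two-sided, with Benjamini-Hochberg adjustment. SEs are those implied by the F statistic. The 16 pairs of libraries of 1 diet were no copies (chi-square divided by its degrees of freedom, 24.6 to 110). Shared 51-base windows were counted with bwa on GENCODE M21 transcripts, allowing 2 mismatches; Krt74 and Krt72-ps had no transcript there. Promoters are RefSeq's.

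All tested keratins are named, with values in every library for 12 chosen ones, for the 2 of smallest p in each layer and for those averaging at least 10 CPM; of partner lists, the 3 called genes of smallest p. Keratin layers, genes and lists were chosen with earlier results of these data known. Alternatives used DESeq2 1.42.0, limma 3.58.1, other scalings and filters, a replicate block, each library left out, and the suprabasal marker level as a covariate. This covariate was added after the data were seen and is included in the counts of alternatives.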

Additional observations from a re-analysis of the deposited data

Results flagged for a closer look

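In 6 of the 66 sets of values examined (33 tested keratins in each diet), 1 library lay far from the others. Its gap to the nearest library took a larger share of the range than Dixon's 95% limit allows. Chance gives about 1 in 20 such sets if values are normally distributed and sets independent. CPM on an unlogged scale need not be so distributed, and the sets share libraries. In all 6 the library was the highest of its set. Krt8 was at 4.46 CPM in AL library 4, against 2.09 to 2.67 in the other AL libraries. Krt80 was at 625 CPM in AL library 5, against 203 to 322. Krt13 was at 7.08 CPM in AL library 1, against 1.47 to 2.71. Krt6b was at 2.42 CPM in DR library 2, against 0.322 to 0.376 in the other DR libraries. Krt222 was at 2.15 CPM in DR library 2, against 1.11 to 1.23. Krt42 was at 5.97 CPM in DR library 1, against 3.44 to 3.76.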

How the results depend on the processing

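Keratins lower in DR numbered 9, and 6 to 10 under other scalings, filters, tools and the replicate block; leaving out 1 library gave 3 to 10, with 5 without AL library 3 or 4 or DR library 1 or 4 and 3 without DR library 3. Keratins higher in DR numbered 4, and 3 to 5 with 1 library left out; the stricter filter (at least 1 CPM in 4 libraries) gave 2, since it tests fewer genes, 13665. With no low-count filter it was 4, with Krt73 (adjusted p = 0.0053) in and Krt18 (0.056) out. All genes called numbered 6290, and 5176 to 6402 with 1 library left out.

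With the replicate block over replicates 1 to 4, 6413 genes, 5 keratins higher and 7 lower were called, and Krt15, Krt14 and Krt8 were not (adjusted p = 0.075, 0.062 and 0.063), while Krt79 and Krt80 were (0.0054 and 0.0053). Libraries with the same number share only that number: deviations of same-numbered libraries correlated at 0.039, 0.13, 0.23 and 0.029, and 1 of 4 DR libraries correlated best with its own number.

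With the suprabasal marker level as a covariate, an alternative chosen after seeing the data, Krt10 changed sign (log2 fold change -0.43, adjusted p = 0.041); the cause was not tested. Small counts limit the estimates of Krt31, Krt28, Krt18 and Krt19, which were all called. In keratins with counts as small that were not called, a difference can be missed at this depth.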
